A study of Mus musculus with 6 samples.

Results

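The 10 heme and iron handling genes described here were *Hmox1*, *Blvrb*, *Hp*, *Hpx*, *Slc40a1*, *Fth1*, *Ftl1*, *Tfrc*, *Slc11a1* and *Slc11a2*. They were chosen by name for heme breakdown, iron storage and iron transport, from 18099 genes in the table. RNA had been sequenced from injured Achilles tendon tissue of 6 neonatal mice, a week after the tendon was cut across in each leg. In 3 *LysM-Cre; Ampkα1 fl/fl* mice, Cre made from the lysozyme M locus removes floxed *Ampkα1*, the gene of the AMP-activated protein kinase subunit α1, from myeloid cells, a class that holds neutrophils and monocytes as well as macrophages. The 3 controls were littermates named *Ampkα1 fl/fl* in the study, which carry the same floxed allele without Cre. The comparison asks how the tissue differed when Cre was present and myeloid cells lacked *Ampkα1*. Cre and its insertion into the lysozyme M locus also separated the groups. Their effects cannot be told apart from those of the *Ampkα1* deletion. Whole repair tissue was used, so fewer cells of a type and less RNA per cell cannot be told apart in any value below.

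Red cells that leak into a wound carry most of the iron that macrophages take up. Haptoglobin and hemopexin bind free hemoglobin and heme, heme oxygenase opens the heme ring and releases its iron, and biliverdin reductases turn pigments of the biliverdin family into bilirubins. Iron is then held in ferritin or leaves the cell through ferroportin, while most cells take iron up through the transferrin receptor. In cells with little iron, iron regulatory proteins bind a hairpin called the iron-responsive element, which blocks translation when it lies in a 5′ UTR and protects the transcript when it lies in a 3′ UTR.

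That hairpin is shown first, because it divides the genes into those with an element before the coding sequence and those with one after it. It was searched for in the UTRs of 58797 protein-coding mouse transcripts from 21877 genes (GENCODE release M21, build GRCm38), on the transcript strand, as C, 5 bases, the loop CAGTGN with A, C or T as its last base, and 5 bases that pair with the first 5 (G-T pairs allowed). The 5′ UTRs of 22 genes (0.101%) and the 3′ UTRs of 99 genes (0.453%) held a match, 121 genes in all (0.553%). Of the 10 heme and iron handling genes, 4 did. A form with 1 extra unpaired base in the downstream arm was searched for only after the first search had been seen. It was present in 240 genes (1.1%), 1 of them a heme and iron handling gene. The loop is in capitals, each element lies within 1 exon, and the letters alone do not show that a regulatory protein binds.
*Fth1*, 5′ UTR, chr19:9982733-9982759, plus strand: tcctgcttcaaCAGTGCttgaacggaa
*Ftl1*, 5′ UTR, chr7:45459780-45459806, minus strand: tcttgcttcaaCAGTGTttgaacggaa
*Slc40a1*, 5′ UTR, chr1:45925466-45925492, minus strand: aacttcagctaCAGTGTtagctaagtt
*Tfrc*, 3′ UTR, chr16:32631220-32631246, plus strand: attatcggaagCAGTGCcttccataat
*Tfrc*, 3′ UTR, chr16:32631599-32631625, plus strand: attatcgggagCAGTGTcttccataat
*Tfrc*, 3′ UTR, chr16:32631664-32631690, plus strand: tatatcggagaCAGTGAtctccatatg
*Tfrc*, 3′ UTR, chr16:32631711-32631737, plus strand: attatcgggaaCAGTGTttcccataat
*Slc11a2*, 3′ UTR, chr15:100395153-100395180, minus strand, with the extra base: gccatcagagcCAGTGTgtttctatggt

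The elements of the ferritin heavy and light chain genes share the same 5 stem pairs. All 4 *Tfrc* elements lie in the last exon, exon 19, of the transcript NM_011638. The *Slc11a2* element is present in 1 of 6 annotated transcripts of the gene, NM_001146161. No match to either form was present in the annotated UTRs of *Hmox1*, *Blvrb*, *Hp*, *Hpx* and *Slc11a1*. The libraries measured transcripts, so translation, on which a 5′ element acts, was not measured.

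Each library held between 18076812 and 19479895 estimated reads. *Lyz2*, the lysozyme M gene into which Cre is inserted, had 7378, 7778 and 7372 reads in the control libraries and 9, 15 and 8 in *LysM-Cre; Ampkα1 fl/fl* libraries, so it separated the groups as labelled. Loss of the *Lyz2* transcript thus went together with the *Ampkα1* deletion, and the design cannot tell them apart. *Prkaa1*, which encodes AMPKα1, had 38.2 ± 0.842 CPM (SD, n = 3, reads scaled to a common library total) in control and 36.2 ± 4.07 in *LysM-Cre; Ampkα1 fl/fl* tissue. A count over the whole gene in whole tissue does not resolve the deletion in myeloid cells, so this gene checks nothing about the labels.

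*Slc40a1*, the gene of ferroportin, the iron exporter of the cell membrane, was the 1 gene of the 10 that passed the test. It was 1.67-fold higher in *LysM-Cre; Ampkα1 fl/fl* tissue. Of the other 9 genes none passed in edgeR's quasi-likelihood test at an adjusted p of 0.05. DESeq2 also called *Slc40a1* and no other gene of the 10. *Blvrb* was the other gene with an unadjusted p under 0.05, and it was lower in each *LysM-Cre; Ampkα1 fl/fl* library than in any control. The same edgeR test called 0.898% of the 14261 genes tested, 0.33% higher and 0.568% lower, and 14.5% had an unadjusted p under 0.05. All 10 genes passed the filter on low counts.

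**Figure D1:**
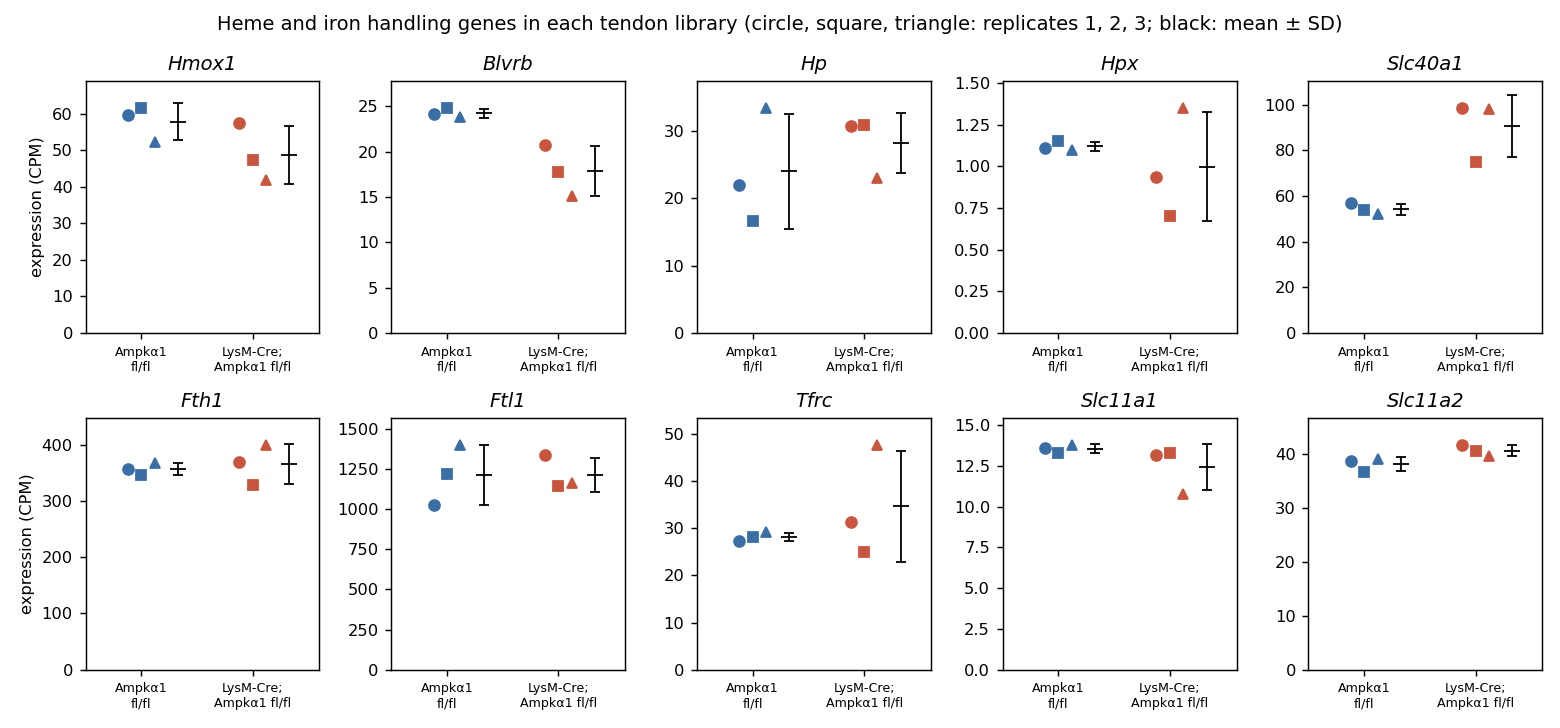
Expression of the 10 genes in CPM (reads scaled to a common library total, vertical axes from 0) in the 3 control (blue) and 3 LysM-Cre; Ampkα1 fl/fl (red) libraries, where each point is a mouse and black marks give the mean ± SD. The lowest red point of Slc40a1 (75.0) lies above the highest blue one (56.9), all red points of Blvrb lie under the blue ones, and the highest Tfrc point (47.7) belongs to 1 mouse.

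The list holds the enzyme that opens the heme ring and one of the biliverdin reductases. *Hmox1* (chr8:75093618-75100593) encodes heme oxygenase 1, the inducible enzyme that opens heme. Its expression was 59.7, 61.5 and 52.1 CPM in the control libraries and 57.3, 47.3 and 41.7 CPM in *LysM-Cre; Ampkα1 fl/fl* libraries. The groups overlapped, because the first *LysM-Cre; Ampkα1 fl/fl* library lay above the third control. The log2 fold change was -0.24 (SE 0.12, edgeR adjusted p = 0.435), and an exact two-sided permutation test gave p = 0.2. With 3 libraries against 3, that test cannot go below 0.1.

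*Blvrb* (chr7:27447978-27465981) encodes biliverdin reductase B, which acts on other biliverdin isomers than the one heme oxygenase makes. Its expression was 24.1, 24.8 and 23.8 CPM in the control libraries, a spread of 0.522 (SD, n = 3). All *LysM-Cre; Ampkα1 fl/fl* libraries were lower, at 20.7, 17.8 and 15.1 CPM. The groups did not overlap, and the mean was 26.3% lower. The log2 fold change of -0.44 (SE 0.12) missed the threshold after adjustment over all genes (edgeR adjusted p = 0.153). The exact permutation test gave its smallest value, 0.1. A macrophage score was taken as the mean log2 CPM of the general macrophage genes described below. With it as a covariate, the log2 fold change was -0.253 for *Blvrb* and -0.053 for *Hmox1* (edgeR adjusted p = 0.415 and 0.914). With a skeletal muscle score, made in the same way, the log2 fold change was -0.375 and -0.122 (edgeR adjusted p = 0.399 and 0.846).

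The 2 scavenger proteins of plasma are made chiefly by the liver. *Hp* (chr8:109575128-109579172), the haptoglobin gene, was also present in these tissues at 22.0, 16.6 and 33.4 CPM in control and 30.7, 30.9 and 23.0 CPM in *LysM-Cre; Ampkα1 fl/fl* libraries. The highest and the lowest of the 6 values both belonged to controls, so the groups overlapped throughout (log2 fold change 0.23, SE 0.25, edgeR adjusted p = 0.735). The log2 fold change was 0.028 without control 2 and 0.549 without control 3. *Hpx* (chr7:105591611-105600116), the hemopexin gene, had 21, 21 and 20 reads in control and 18, 13 and 25 reads in *LysM-Cre; Ampkα1 fl/fl* libraries. At that depth a log2 fold change of -0.16 had an SE of 0.31 (edgeR adjusted p = 0.862), and no difference was detectable. Of 10 hepatocyte genes, 1 (*Trf*, the transferrin gene) had enough reads to be tested, and *Fga* had 0 reads in every library.

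*Slc40a1* (chr1:45908070-45926532) had 1075, 982 and 951 reads in the control libraries and 1891, 1386 and 1817 in *LysM-Cre; Ampkα1 fl/fl* libraries, all of them assigned to NM_016917, the transcript with the 5′ element printed above. That was 56.9, 53.7 and 52.1 CPM against 98.6, 75.0 and 98.2 CPM. The second *LysM-Cre; Ampkα1 fl/fl* library was the lowest of its group and still lay above every control. The means were 54.2 ± 2.42 and 90.6 ± 13.5 CPM (SD, n = 3 each). The log2 fold change was 0.74 (SE 0.11, edgeR adjusted p = 0.043). An exact permutation test gave the smallest p it allows, 0.1. With the replicate number as a block, which called 0.33% of genes, the log2 fold change was 0.73 and the edgeR adjusted p 0.0611. DESeq2, which called 4.77% of genes, gave 2.1e-07.

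The size of the *Slc40a1* difference held better than its call. Over 16 other settings the log2 fold change lay between 0.67 and 0.86, while the adjusted p ran from 2.1e-07 to 0.206. Leaving out any 1 library other than the second *LysM-Cre; Ampkα1 fl/fl* library ended the edgeR call. Those adjusted p values were 0.181, 0.192 and 0.115 without control 1, 2 and 3, and 0.149 and 0.107 without *LysM-Cre; Ampkα1 fl/fl* 1 and 3.

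Macrophages that clear red cells are known for high ferroportin, and macrophage genes were therefore set beside it. Of 14 general macrophage genes, 5 were higher and 9 lower, and 0 passed in edgeR. At an unadjusted p under 0.05, 2 were higher and 6 lower, and DESeq2 called 3. Their summed level in TPM, which scales for transcript length as well as library total, was 2041 to 2108 in control and 1620 to 2049 in *LysM-Cre; Ampkα1 fl/fl* tissue. The list was mixed. *Csf1r*, the receptor for macrophage colony-stimulating factor, was 239, 244 and 268 CPM in control and 171, 184 and 128 CPM in *LysM-Cre; Ampkα1 fl/fl* tissue (log2 fold change -0.63, edgeR adjusted p = 0.0933). *Adgre1* was 97.4, 103 and 103 CPM in control and 75.3, 73.9 and 61.5 CPM in *LysM-Cre; Ampkα1 fl/fl* tissue (log2 fold change -0.52, edgeR adjusted p = 0.0508). *Mpeg1* was higher, at 85.7, 76.9 and 94.7 CPM in control and 152, 104 and 125 CPM in *LysM-Cre; Ampkα1 fl/fl* tissue (log2 fold change 0.57, edgeR adjusted p = 0.141). Most genes typical of tissue-resident macrophages were lower. All 9 tested had a log2 fold change under 0, with a median of -0.83, although *Vcam1* was at -0.01 (edgeR adjusted p = 0.987). Of these, *Folr2*, *Marco* and *F13a1* passed, where edgeR called 0.898% of all genes tested. With the replicate block *Marco* did not pass (edgeR adjusted p = 0.0528) and *Lyve1* did (0.0490). The summed level of all 12 listed resident macrophage genes with values, tested or not, was 371 to 384 TPM in control and 152 to 222 TPM in *LysM-Cre; Ampkα1 fl/fl* tissue. *Slc40a1* was thus higher in the libraries in which these markers were lower. With the macrophage score as a covariate, the *Slc40a1* log2 fold change was 0.725 (edgeR adjusted p = 0.206). The part of the resident macrophage genes in that result was not tested.

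Ferritin stores iron in a shell of heavy chains, which oxidise it, and light chains, which help it to mineralise. *Fth1* (chr19:9980600-9985111) had 356, 346 and 368 CPM in the control libraries and 370, 329 and 400 CPM in *LysM-Cre; Ampkα1 fl/fl* libraries. The controls all lay inside the range of the other group. The log2 fold change was 0.04 (SE 0.08, edgeR adjusted p = 0.878). *Ftl1* (chr7:45457944-45459886) had 1025, 1217 and 1401 CPM in control and 1335, 1142 and 1161 CPM in *LysM-Cre; Ampkα1 fl/fl* libraries. Its fold was 0.999 with an SE of 0.12 on the log2 scale (edgeR adjusted p = 0.998), and here the controls spread more widely than the other group.

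The ratio of light to heavy chain transcripts, on the TPM scale, was 2.75, 3.37 and 3.64 in control and 3.45, 3.32 and 2.78 in *LysM-Cre; Ampkα1 fl/fl* libraries. The means were 3.25 ± 0.452 and 3.18 ± 0.355 (SD, n = 3 each), and the exact permutation test of the log2 ratio gave p = 0.8. Under ferritin names, the annotation holds 5 pseudogene copies (*Ftl1-ps1*, *Ftl1-ps2*, *Ftl2-ps*, *Fth-ps2* and *Fth-ps3*) that are not in the table. Copies under other names were not looked for. Some ferritin reads may have come from such copies, and both levels are uncertain to that extent.

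Iron enters cells on transferrin or through metal transporters. *Tfrc* (chr16:32608896-32632794), the transferrin receptor gene, had 27.3, 28.1 and 29.1 CPM in control and 31.4, 24.9 and 47.7 CPM in *LysM-Cre; Ampkα1 fl/fl* libraries. The third *LysM-Cre; Ampkα1 fl/fl* library stood far above the rest, and the second lay below every control. The log2 fold change was 0.30 (SE 0.22, edgeR adjusted p = 0.595), and it was 0.001 when the third library of that group was left out. The same library was also the highest in skeletal muscle genes. All 28 of those had a log2 fold change above 0, with 0 passing in edgeR (1 at an unadjusted p under 0.05, 0 in DESeq2). Their summed level was 553, 1645 and 8802 TPM in control and 8970, 3096 and 25841 TPM in *LysM-Cre; Ampkα1 fl/fl* libraries. With the mean log2 CPM of those genes as a covariate, the *Tfrc* log2 fold change was -0.033 and that of *Slc40a1* 0.671 (edgeR adjusted p = 0.984 and 0.133). That library was also the lowest in the macrophage score. With the macrophage score as a covariate, the *Tfrc* log2 fold change was -0.017 (edgeR adjusted p = 0.991). Which cell type the *Tfrc* value came from was not tested. NM_011638, which has the 4 elements, took between 74.2% and 100% of *Tfrc* reads.

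*Slc11a1* (chr1:74375014-74386057) encodes the metal transporter of the phagosome, NRAMP1, which is made mainly in macrophages and neutrophils. It had 13.6, 13.3 and 13.8 CPM in control and 13.2, 13.3 and 10.8 CPM in *LysM-Cre; Ampkα1 fl/fl* libraries. The groups were separated by less than the last digit printed, and the log2 fold change was -0.13 (SE 0.11, edgeR adjusted p = 0.651). It was -0.036 when the library at 10.8 CPM was left out, -0.001 with the macrophage score and -0.063 with the muscle score as a covariate. *Slc11a2* (chr15:100387898-100424209) encodes DMT1, which moves iron out of endosomes. It had 38.7, 36.7 and 39.2 CPM in control and 41.8, 40.6 and 39.7 CPM in *LysM-Cre; Ampkα1 fl/fl* libraries, without overlap and with a small log2 fold change (0.09, SE 0.06, edgeR adjusted p = 0.521).

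In CPM, 4 of the 10 genes had groups that did not overlap, *Slc40a1* and *Slc11a2* higher and *Blvrb* and *Slc11a1* lower. Among all genes tested, the share without overlap in CPM was 20.4%. By TPM, the groups of *Slc40a1* and *Blvrb* again did not overlap, but those of *Slc11a2* and *Slc11a1* did. No share of all genes by TPM is given here, so the comparison with all genes holds for CPM only.

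*Slc11a2* was the member with the most transcripts in the table, 10. The transcript with the 3′ element, NM_001146161, took 52.9%, 52.0% and 51.9% of its reads in control and 54.0%, 58.3% and 57.0% in *LysM-Cre; Ampkα1 fl/fl* libraries. The groups did not overlap. The difference was 4.20 percentage points and the exact permutation test gave p = 0.1, the smallest it allows. By TPM the shares were 43.6% ± 0.629 and 47.1% ± 2.27 (SD, n = 3 each). Reads that several transcripts share were divided by estimation, and the share of the next transcript, NM_008732, varied from 22.9% to 40.2% between control libraries. Transcripts of the table without a match in GENCODE were not searched for the element.

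**Figure D2:**
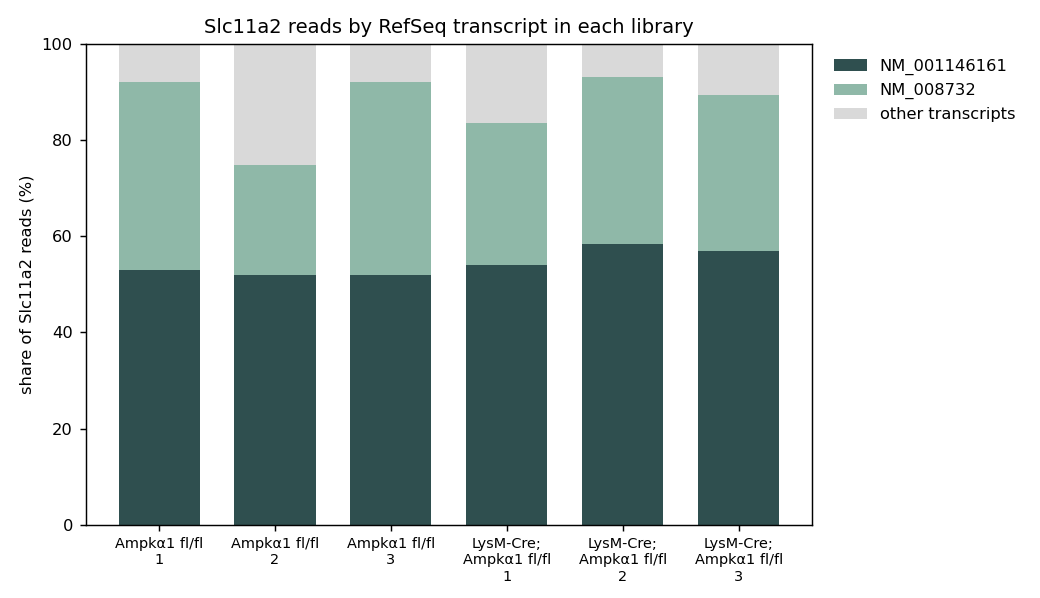
Share of Slc11a2 reads (vertical axis, percent, from 0) by RefSeq transcript in the 3 control and 3 LysM-Cre; Ampkα1 fl/fl libraries. Each library is 1 stacked bar, with NM_001146161 and NM_008732 drawn singly and all other transcripts pooled. The dark part, NM_001146161, reaches 51.9% to 52.9% in control and 54.0% to 58.3% in LysM-Cre; Ampkα1 fl/fl libraries, and the lighter parts vary more between libraries of the same group.

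Scaled for transcript length, the 10 genes covered a wide range of levels. *Ftl1* was the highest at 3146 to 4381 TPM over the 6 libraries, and *Fth1* followed at 1089 to 1260 TPM. *Hmox1* (64.8 to 95.6 TPM), *Blvrb* (54.5 to 89.4 TPM), *Hp* (31.6 to 66.0 TPM) and *Slc40a1* (34.0 to 63.8 TPM) came next, and each of these overlapped with its neighbour in that order. *Slc11a2* lay below them at 20.8 to 24.7 TPM. *Tfrc* (11.1 to 20.1 TPM) and *Slc11a1* (10.2 to 13.6 TPM) overlapped, and *Hpx* was the lowest at 1.26 to 2.27 TPM. In control tissue, all 3 *Blvrb* values (87.9, 89.4 and 89.1 TPM) were above all 3 *Slc40a1* values (37.6, 34.0 and 34.2 TPM). In *LysM-Cre; Ampkα1 fl/fl* tissue the same genes were close, with *Blvrb* at 76.7, 68.4 and 54.5 TPM and *Slc40a1* at 63.8, 50.5 and 62.4 TPM.

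**Figure D3:**
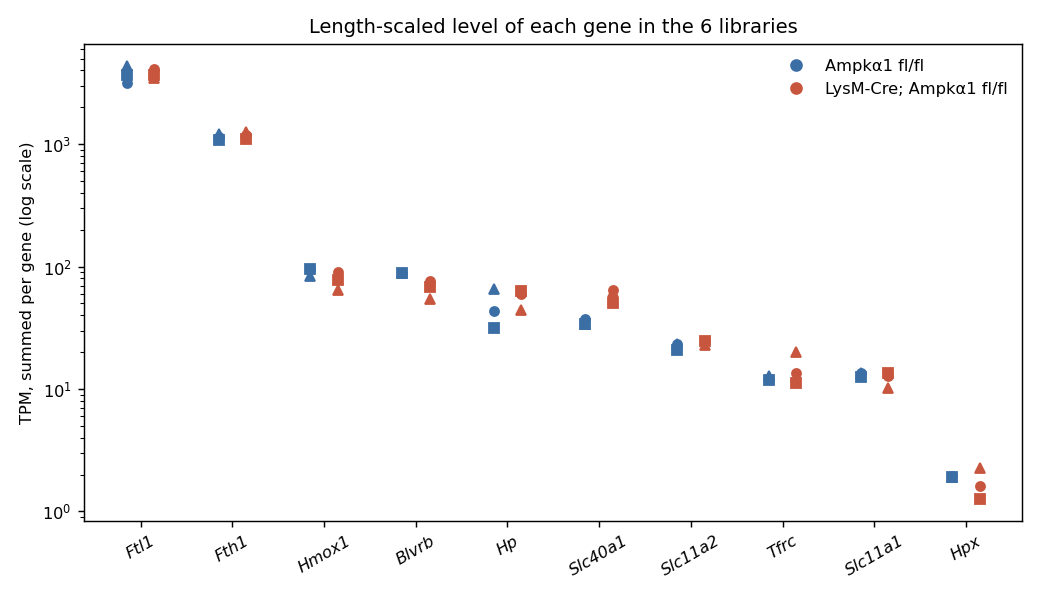
Level of each gene in TPM (scaled for transcript length and library total, vertical axis on a log scale), ordered by the mean over the 6 libraries, where each point is a mouse, blue for control and red for LysM-Cre; Ampkα1 fl/fl, with circles, squares and triangles for replicates 1, 2 and 3. Ftl1 lies at 3146 TPM or more and Hpx at 2.27 TPM or less, and Slc40a1 is the gene whose red points sit clear above its blue ones.

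Around these genes stood a wider list of 61 genes of heme synthesis, heme transport and iron control, of which 57 could be tested. In it, 24 genes had a log2 fold change above 0 and 33 below, with a median of -0.05 beside -0.00 for all genes tested. *Alas2*, *Steap4* and *Tfr2* fell, and 0 rose. At an unadjusted p under 0.05, 3 were higher and 10 lower. DESeq2 called 5 and the fit with the replicate block 1, *Steap4*. For all genes tested, the shares were 0.898% called by edgeR and 14.5% at an unadjusted p under 0.05. DESeq2 called 4.77% of them and the fit with the replicate block 0.33%. *Hamp*, the hepcidin gene, is not in the table, and *Tmprss6* and *Spic* had too few reads.

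*Steap4* encodes a metalloreductase, one of a family that reduces iron for uptake. It had 85.7, 86.4 and 73.7 CPM in control and 48.9, 48.8 and 42.0 CPM in *LysM-Cre; Ampkα1 fl/fl* libraries. The groups were well apart, with means of 81.9 ± 7.16 and 46.6 ± 3.97 CPM (SD, n = 3 each), a log2 fold change of -0.81 (SE 0.09) and an edgeR adjusted p of 0.0191. That rose to 0.110, 0.109 and 0.0968 when control 1, control 2 or *LysM-Cre; Ampkα1 fl/fl* 1 was left out. Among the other carriers, oxidases and reductases, 0 passed in edgeR or DESeq2, with *Heph*, *Steap3*, *Scara5* (lower) and *Frrs1* (higher) at an unadjusted p under 0.05. The ceruloplasmin gene *Cp*, which encodes the plasma oxidase that loads iron onto transferrin, had a log2 fold change of -0.64 (SE 0.29, edgeR adjusted p = 0.386). The lactoferrin gene *Ltf*, a product of neutrophil granules, varied from 0 to 8.34 CPM between libraries (log2 fold change 1.41, SE 1.29, edgeR adjusted p = 0.677).

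*Alas2* encodes the first enzyme of heme synthesis in red cell precursors, and its 5′ UTR holds the only element of the fully paired form found in the wider list, of 60 genes searched.
*Alas2*, 5′ UTR, chrX:150547459-150547485, plus strand: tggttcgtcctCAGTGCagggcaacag

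Its expression was 32.3, 33.8 and 47.5 CPM in control and 16.0, 10.4 and 11.6 CPM in *LysM-Cre; Ampkα1 fl/fl* libraries, a log2 fold change of -1.58 (SE 0.21, edgeR adjusted p = 0.0315, or 0.0611 with the replicate block). Leaving out any 1 library but the second *LysM-Cre; Ampkα1 fl/fl* one ended the call, with edgeR adjusted p values from 0.0604 to 0.124. The other 8 enzymes of heme synthesis did not pass in edgeR or in DESeq2, and 0 had an unadjusted p under 0.05. *Ppox*, which encodes protoporphyrinogen oxidase, had a log2 fold change of -0.13 (SE 0.10, edgeR adjusted p = 0.611). *Alas1*, the form of the first enzyme that is made in every tissue, is among these 8.

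*Alas2* is also an erythroid marker. Of 10 erythroid genes tested 9 were lower, with a median log2 fold change of -1.59, and 6 fell, among them the globin genes *Hbb-bs*, *Hbb-bt*, *Hba-a1* and *Hba-a2*. With the replicate block 1 of the 6 passed, *Hbb-bs* (edgeR adjusted p = 0.0466), and the other globin genes were at 0.0524 to 0.0634. The summed level of the list was 13812, 16240 and 22232 TPM in control and 7246, 5176 and 5451 TPM in *LysM-Cre; Ampkα1 fl/fl* libraries. All 3 *LysM-Cre; Ampkα1 fl/fl* libraries therefore held less erythroid RNA, and its part in the *Alas2* result was not tested.

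*Tfr2*, a second transferrin receptor that senses iron in liver cells and red cell precursors, had 50, 37 and 41 reads in control and 7, 10 and 9 reads in *LysM-Cre; Ampkα1 fl/fl* libraries. It fell by 2.30 on the log2 scale (SE 0.27, edgeR adjusted p = 0.0207, or 0.0634 with the replicate block). The same 5 omissions ended this call too, at 0.0714 to 0.130. Of the 8 iron-sensing genes tested, 4 had an unadjusted p under 0.05 (1 higher, 3 lower), edgeR called *Tfr2* and DESeq2 called 2. *Hfe*, the hemochromatosis gene, had a log2 fold change of -0.30 (SE 0.11, edgeR adjusted p = 0.287). *Aco1*, which encodes iron regulatory protein 1, had 64.9, 67.7 and 66.7 CPM in control and 57.5, 52.9 and 57.2 CPM in *LysM-Cre; Ampkα1 fl/fl* libraries. Those groups did not overlap, but the log2 fold change of -0.25 (SE 0.05) did not pass in edgeR (adjusted p = 0.101), while DESeq2 gave 0.0493. *Aco1* was outside the naming rule and was chosen after its values were seen. The hemojuvelin gene *Hjv*, which is also made in skeletal muscle, had 1.64, 3.33 and 19.2 CPM in control and 14.2, 7.95 and 50.0 CPM in *LysM-Cre; Ampkα1 fl/fl* libraries, in the same order as the summed muscle genes except for the third control and the first *LysM-Cre; Ampkα1 fl/fl* library. It did not pass (log2 fold change 1.58, SE 1.00, edgeR adjusted p = 0.528).

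Of 11 genes of heme breakdown and heme transport outside the 10, 0 passed in edgeR, 1 had an unadjusted p under 0.05 and DESeq2 called 1. That gene was *Cd163*, the macrophage receptor for hemoglobin bound to haptoglobin. It had 23.6, 23.2 and 27.9 CPM in control and 17.2, 17.5 and 8.49 CPM in *LysM-Cre; Ampkα1 fl/fl* libraries, without overlap (log2 fold change -0.79, SE 0.26, edgeR adjusted p = 0.227, DESeq2 adjusted p = 0.0437). It is also one of the resident macrophage markers whose summed levels are given above. *Flvcr2* (log2 fold change -0.52, SE 0.29) and the heme carrier gene *Slc46a1* (-0.17, SE 0.15) followed, with edgeR adjusted p values of 0.475 and 0.657.

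The 8 tested genes of iron chaperones, ferritin turnover and mitochondrial iron included 0 that passed in edgeR or DESeq2. *Ncoa4*, the receptor that delivers ferritin to lysosomes, had the lowest log2 fold change (-0.24, SE 0.07, edgeR adjusted p = 0.168) and was the 1 gene with an unadjusted p under 0.05. The 4 tested transcription factors that respond to heme or to oxidative stress had log2 fold changes from 0.04 to 0.14, with 0 passing in edgeR or DESeq2 and 1, *Mafg*, at an unadjusted p under 0.05. *Bach1*, the repressor of *Hmox1* that heme releases from DNA, was at 0.14 (SE 0.06, edgeR adjusted p = 0.386). Of 12 targets of NRF2, the activator that shares sites with BACH1 and also drives *Hmox1*, 4 were higher and 8 lower, with a median of -0.03. In edgeR 0 passed (3 at an unadjusted p under 0.05, all lower, and 0 in DESeq2).

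**Figure D4:**
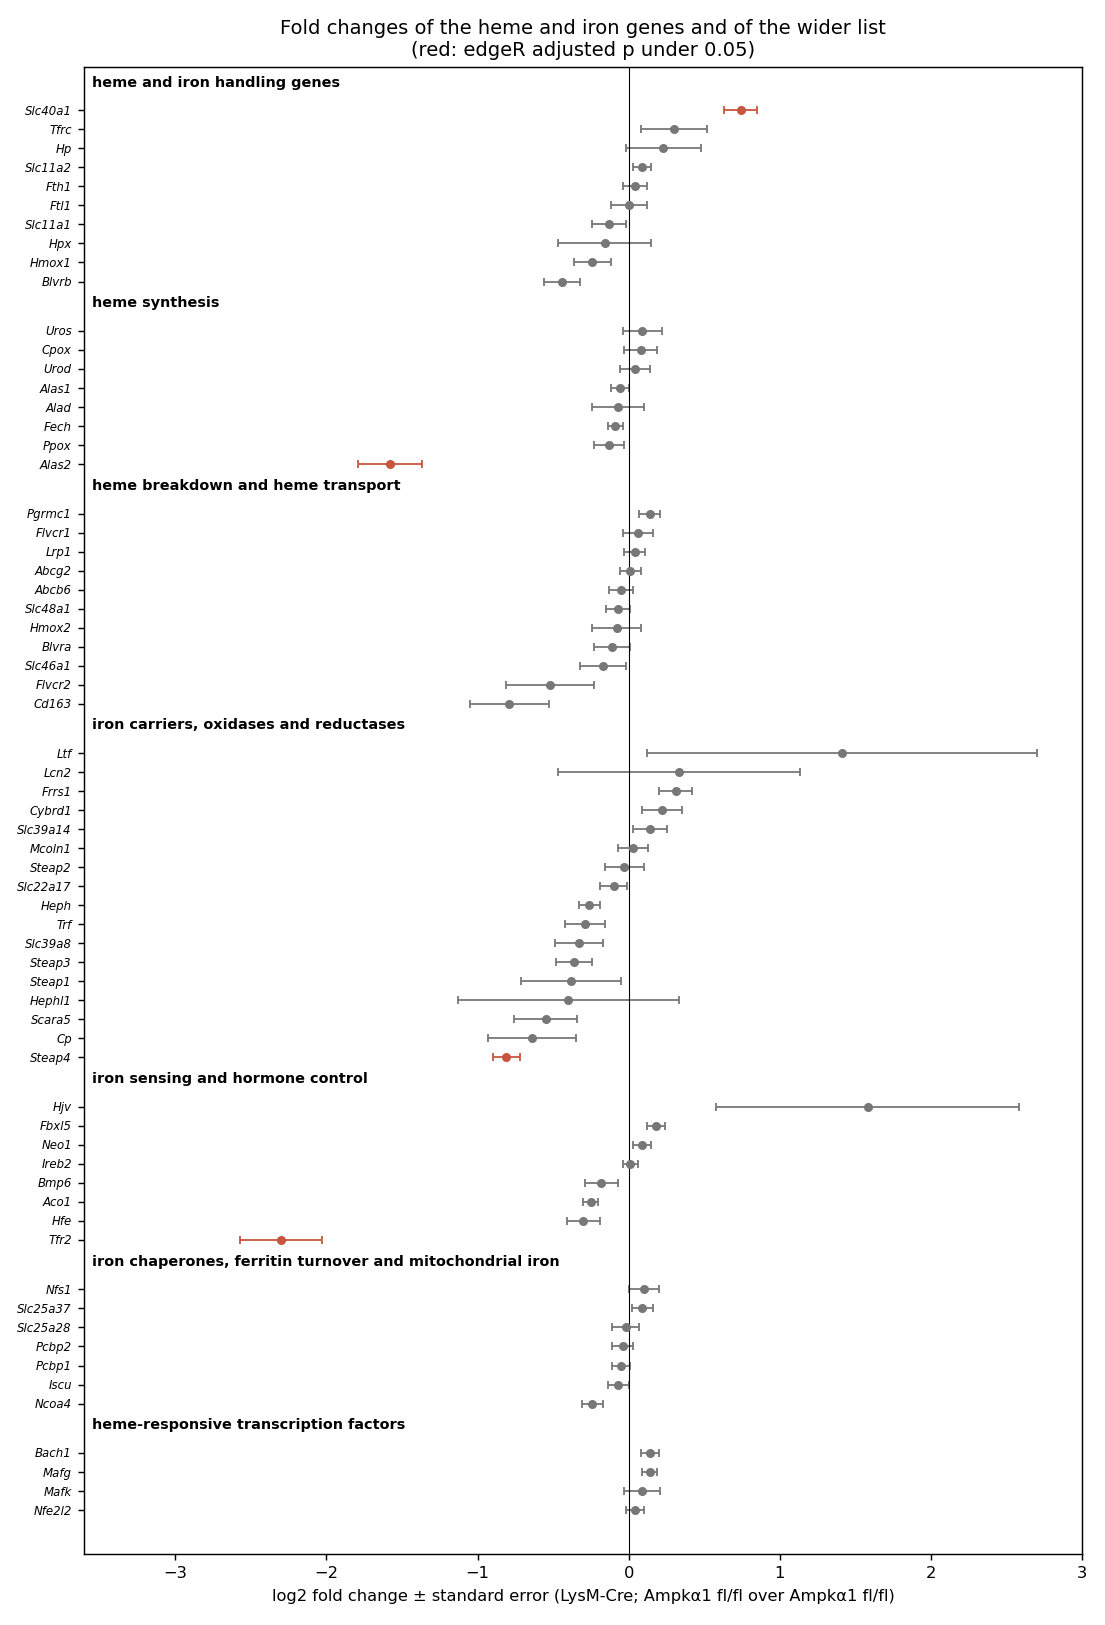
Log2 fold change ± standard error (horizontal axis, LysM-Cre; Ampkα1 fl/fl over control, n = 3 each) of the 10 heme and iron handling genes at the top and of tested genes of the wider list below, grouped by role, with genes under an edgeR adjusted p of 0.05 in red. Slc40a1 (0.74) is the red gene to the right of 0, and Steap4 (-0.81), Alas2 (-1.58) and Tfr2 (-2.30) are the red genes to the left.

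Other cell types were represented unevenly between the mice. Of 10 neutrophil genes tested 0 passed in edgeR or DESeq2, and 0 had an unadjusted p under 0.05. The summed level of the full list of 14 was 120, 355 and 29.2 TPM in control and 360, 424 and 50.2 TPM in *LysM-Cre; Ampkα1 fl/fl* libraries. Of 10 adipocyte genes 9 were lower and 0 passed in edgeR (2 at an unadjusted p under 0.05, 1 in DESeq2), with 925 to 1581 TPM in control and 362 to 1148 TPM in *LysM-Cre; Ampkα1 fl/fl* tissue. All 20 genes of cell division were lower at an unadjusted p under 0.05, with 0 passing in edgeR and 13 in DESeq2. Over all genes tested, 14.5% had an unadjusted p under 0.05 and DESeq2 called 4.77%. The cell division list was written by hand with earlier results of these data known. Of 11 tendon genes 1 fell, *Dcn*, the gene of the matrix proteoglycan decorin (log2 fold change -0.45, SE 0.06, edgeR adjusted p = 0.0301, or 0.0611 with the replicate block), and DESeq2 called 2. The tendon list had a median log2 fold change of -0.00 and a summed level of 44591 to 50884 TPM over all 6 libraries. Apart from the covariates given above, the part of these cell types in the heme and iron results was not tested.

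**Figure D5:**
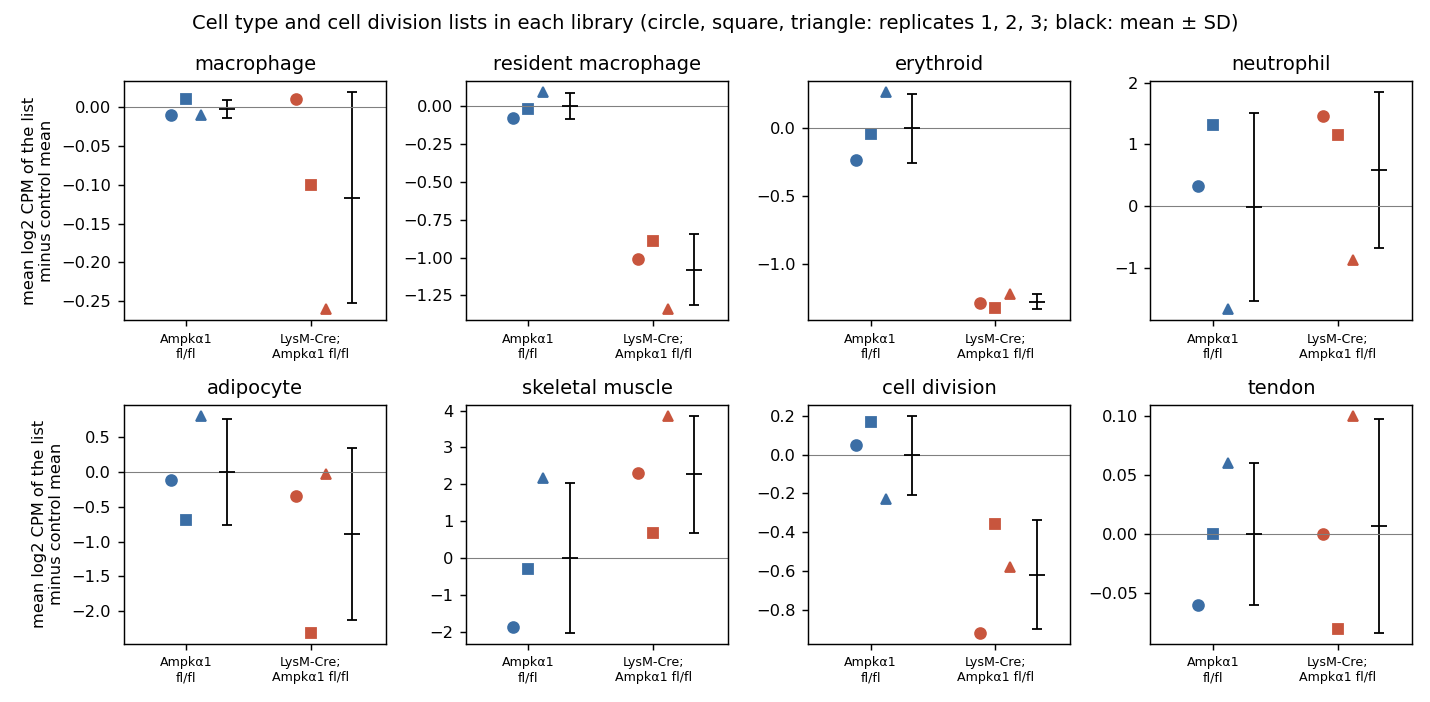
Mean log2 CPM of each marker list minus the control mean (vertical axes, which differ between panels) in the 3 control (blue) and 3 LysM-Cre; Ampkα1 fl/fl (red) libraries, where each point is a mouse and black marks give the mean ± SD. Red points lie under all blue points for the resident macrophage, erythroid and cell division lists, and the third LysM-Cre; Ampkα1 fl/fl library is the highest for skeletal muscle (3.85) and the lowest for macrophages (-0.26).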

How the data were processed

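The authors deposited 1 table of 65053 RefSeq transcripts from sequencing at BGI, with an estimated count (expected count, not normalized) and a TPM value, scaled to length and to library total by the authors, per transcript and mouse. The submitters' processing notes name GRCm38.p6, and the aligner and counter are not given in the sources used here. Another 12 per-sample columns (FPKM, normalized counts) and 8 averages were not used. Estimated counts were summed per gene (18049 of 18099 matched a symbol) and rounded to whole reads. In R 4.3.3, edgeR 4.0.16 (TMM, filterByExpr, quasi-likelihood F test) was run on 14261 genes, with Benjamini-Hochberg adjustment over all of them and a threshold of 0.05. SE was taken as the log2 fold change over the root of its F statistic. CPM use TMM-scaled library totals. Exact two-sided permutation tests used log2(CPM + 0.5). Alternatives used limma 3.58.1 and DESeq2 1.42.0. The test was also run on simulated counts, and the outcome is not reported here. The 6 libraries are 6 mice, 3 per genotype.

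The main edgeR fit had no block. Because both groups share replicate numbers, an alternative fit used the number as a block, although the labels name no shared litter or day. Deviations from the group means correlated at 0.184, 0.118 and 0.31 between same-numbered libraries. Differently numbered libraries correlated at -0.55 to 0.501, and controls 1 and 2 each correlated best with a *LysM-Cre; Ampkα1 fl/fl* library of another number (0.501 and 0.127). Marker and pathway lists were written by hand. The 10 genes and the lists were chosen with earlier results of these data known. Named genes are the 10, wider-list genes that passed, otherwise up to 3 per role with the largest change at a mean of at least 1 CPM, and list members with the largest change. Genes named outside this rule (*Alas1*, *Aco1*, *Heph*, *Steap3*, *Scara5*, *Frrs1*, *Vcam1*) were chosen after their values were seen. Gene coordinates are from RefSeq GRCm38.p6 and UTR elements from GENCODE M21 on GRCm38. Some wider-list genes are counted but not reported singly here.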

Additional observations from a re-analysis of the deposited data

How the results depend on the processing

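Genes called between groups numbered 128, against 680 by DESeq2, 47 with the replicate block and 8 to 276 when 1 library was left out. Of the 10 heme and iron handling genes 1 was called, against 0 with the replicate block and 0 to 1 when 1 library was left out. Of the wider list 3 were called, against 5 by DESeq2, 1 with the replicate block and 0 to 3 when 1 library was left out. The *Slc40a1* call was also lost with limma on log2(TPM + 0.1) (adjusted p = 0.0508). The replicate block ended the calls of *Slc40a1*, *Alas2* and *Tfr2* and changed no other call in the heme and iron lists. Among marker genes it ended those of *Marco*, *Dcn*, *Slc4a1*, *Hbb-bt*, *Hba-a1* and *Hba-a2* and added *Lyve1*.

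Values near 0 changed sign. *Fth1* (0.04) was -0.060 with the muscle score, -0.024 with the macrophage score and -0.029 to 0.11 when 1 library was left out. *Ftl1* was 0.004 with RLE scaling, 0.004 by DESeq2, 0.006 with the replicate block, 0.079 with the macrophage score, 0.023 by limma at either pseudocount, and -0.11 to 0.114 when 1 library was left out. *Tfrc* was -0.033 with the muscle score and -0.017 with the macrophage score. *Hpx* was -0.442 to 0.033 and the log2 ferritin ratio -0.144 to 0.0656 when 1 library was left out. The cause was not tested. Of 160 values for the 10 genes, over 16 settings, 136 kept direction and side of the threshold, and 6 genes never changed sign. Depth limits genes with few reads, such as *Hpx* and *Tfr2*. A fit on 3 against 2 libraries has few degrees of freedom.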
